A study of Mus musculus with 2 samples.

Results

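The genes that copy DNA and supply its building blocks were examined in Neuro2a cells, a mouse neuroblastoma line. One culture had received an siRNA against Tmem132a (also called mKIAA1583), and its array is called the knockdown array here. The other had received a non-specific siRNA, and its array is called the control array. The 52 genes were named by function, with no threshold on their values, and every probe set annotated to exactly 1 of their symbols was taken. Of these genes, 51 had such a probe set, out of 18193 genes in all, and all 51 passed the signal filter described next. Chaf1a was not analysed here. By role, 13 of the 51 genes belong to the replicative helicase, 11 to the control of replication origins, 19 to the polymerases and the proteins that work with them, 6 to nucleotide synthesis and 2 to chromatin replication. With 1 array per group, the differences below carry no error between replicates and could not be tested. Time after transfection, siRNA dose and siRNA sequence are not given in the labels. Both groups are transfected cells of 1 line, and an untransfected group was not analysed here.

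Total RNA was measured on Affymetrix mouse genome arrays, and the values are MAS5 signal intensities, which summarise the probes of a probe set on a linear scale. Probe sets were kept where the average of the 2 signals reached 77.25, the median of all probe sets. Each gene was given the mean of the log2 ratios of its probe sets, knockdown over control. A ratio of -0.58 or below is called at least 1.5-fold lower, and a ratio of -1 or below at least 2-fold lower. These sizes are descriptions and not tests. The signals of different probe sets cannot be ranked against each other, so levels are compared only between the arrays.

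The 2 arrays were alike in their overall properties. Their median signals were 76.5 (control) and 81.9 (knockdown), and the ratio of 3' to 5' signal was 1.52 and 1.69 for Actb and 0.953 and 0.994 for Gapdh. Tmem132a itself went from 1825.5 on the control array to 435.6 on the knockdown array, 23.9% of the control, which goes with the titles, although the free-text description of the second sample names the control siRNA. Of 16 markers of sympathetic neuroblasts, the cell type of origin, 14 had a probe set and 12 passed the filter, among them Hand2 (15242 and 13190.2), Phox2a (5143.9 and 4666.5) and Gata2 (2027.7 and 1701). The neurofilament genes Nefl and Nefm did not pass it. All 12 neuroblast markers had ratios below 0, with a median of -0.38. They ran from -1.19 for Ache (272.1 and 119.3), past 2-fold, to -0.06 for Th (122.8 and 117.8). The summed signal of the list was 49719.3 on the control array and 40665.7 on the knockdown array. Markers of other cell types were mostly under the filter. Of those with a probe set, 1 of 8 passed for fibroblasts (Fn1), 1 of 6 for glia (Mbp), 2 of 7 for immune cells (Csf1r and Laptm5) and 1 of 8 for epithelium and endothelium (Epcam). Their summed signals, control first, were 3032.1 and 1964.5 for fibroblasts, 273.7 and 392 for glia, 366.9 and 533.9 for immune cells, and 260.6 and 402 for epithelium and endothelium. The sums for these other cell types include markers under the filter, such as Cd14 (4.2 and 58.3) and Tyrobp (16.5 and 90.5). Among the markers that passed, Csf1r, Laptm5 and Mbp had ratios of -0.10, 0.09 and -0.18. Fn1 (2711.4 and 1712.1) made up most of the fibroblast sum, and Epcam had a ratio of 1.04 (70.9 and 146.1). The control signal of Epcam was under the filter value, so Epcam passed only through its knockdown signal. Its ratio is therefore no support for a difference. What the differences in marker signal contribute to the ratios of the replication genes was not tested.

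DNA replication starts at origins, where the origin recognition complex, Cdc6 and Cdt1 load a double ring of MCM proteins onto DNA in G1 phase. At the start of S phase the kinase Cdc7, with its activator Dbf4, triggers the joining of Cdc45 and GINS to the MCM ring, which then unwinds DNA ahead of the polymerases. Deoxynucleotides are made by ribonucleotide reductase and by the enzymes of thymidylate supply, and many of these genes are transcribed under the control of E2F factors as cells enter S phase. Neuroblastoma cells divide in culture, and replication genes are known for their high expression in dividing cells.

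As a set, the replication and nucleotide genes lay slightly below the control level on the knockdown array. Their median log2 ratio was -0.14, against 0.02 over all 10678 genes, and 36 of 51 (70.6%) had a ratio below 0, where 48.2% of all genes did. The size was small for most of them: 32 of 51 (62.7%) lay within 1.2-fold of the control, against 48.3% of all genes. At least 1.5-fold lower were 6 genes (11.8%), Tk1, Tyms, Pold1, Mcm4, Uhrf1 and Gins2, beside 9.1% of all genes, so this count was near the background. Only Mcm8 was at least 1.5-fold higher (1.96%), beside 8.83% of all genes. At least 2-fold lower were 2 genes, Tk1 and Tyms, beside 2.44% of all genes, and 0 were at least 2-fold higher, beside 2.1%. Tyms reached 1.5-fold and 2-fold only through 1 probe set, with 165 (control) and 40.3 (knockdown), the latter under the filter value. Its place in both counts is therefore no support for a difference. With the stricter filter at the 75th percentile of signal, 48 genes remained. Of these, 33 (68.8%) were below 0 and 30 (62.5%) within 1.2-fold, against 47.9% and 53.5% of all genes past that filter. At least 1.5-fold lower were 5 (10.4%), beside 6.74% of all genes. At least 1.5-fold higher was 1 (2.08%), beside 5.71% of all genes. Past 2-fold there was 1 lower, beside 1.31% of all genes, and 0 higher, beside 0.642%. No set of these genes was tested for a difference from the rest. In RNA from a whole culture, fewer cells in S phase and less RNA per cell cannot be told apart.

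**Figure D1:**
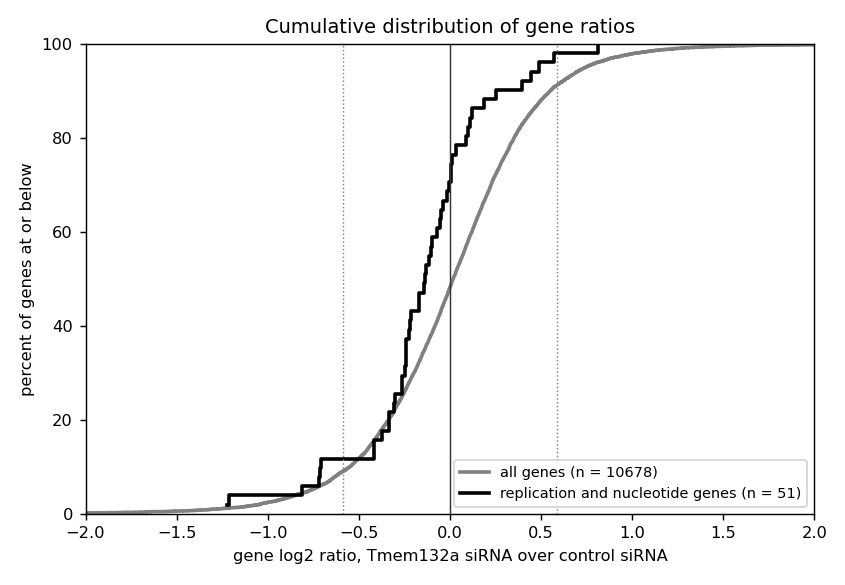
Cumulative share of genes (percent, vertical axis) at or below each gene log2 ratio (horizontal axis, knockdown over control), for all 10678 genes in grey and the 51 replication and nucleotide genes in black. Dotted lines mark 1.5-fold, and the black curve crosses 0 at 70.6% where the grey one does at 48.2%.

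Most of these genes had at least 1 bright probe set, but some gene means also include probe sets near the filter, such as those of Pole2 (110 and 79.6), Orc4 (74.5 and 117), Mcm10 (87.4 and 120.6) and Cdc45 (111.4 and 99.1). Of 51 genes, 26 had a brightest probe set of 2000 or more, 21 one between 500 and 2000, and 4 a dimmer one. Among the 26 brightest, 19 had a ratio below 0, the SD of the ratios was 0.22, and 2 were at least 1.5-fold lower, Mcm4 and Uhrf1. Over all 2554 genes of that signal range the SD was 0.34, 49.1% were below 0 and 4.66% were at least 1.5-fold lower. Several probe sets measured 33 of the 51 genes, and in 25 of the 33 (75.8%) all of them lay on the same side of 0, against 55.2% over all genes with several probe sets. Their SD around the gene mean was 0.29, or 0.24 without Tyms, against 0.39 over all genes. Neither comparison was matched for signal: 4 of 51 genes had a brightest probe set under 500, against 4047 of all 10678. The spread between probe sets lies within the same pair of RNA samples and says nothing of how cultures vary. Its source was not tested.

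**Figure D2:**
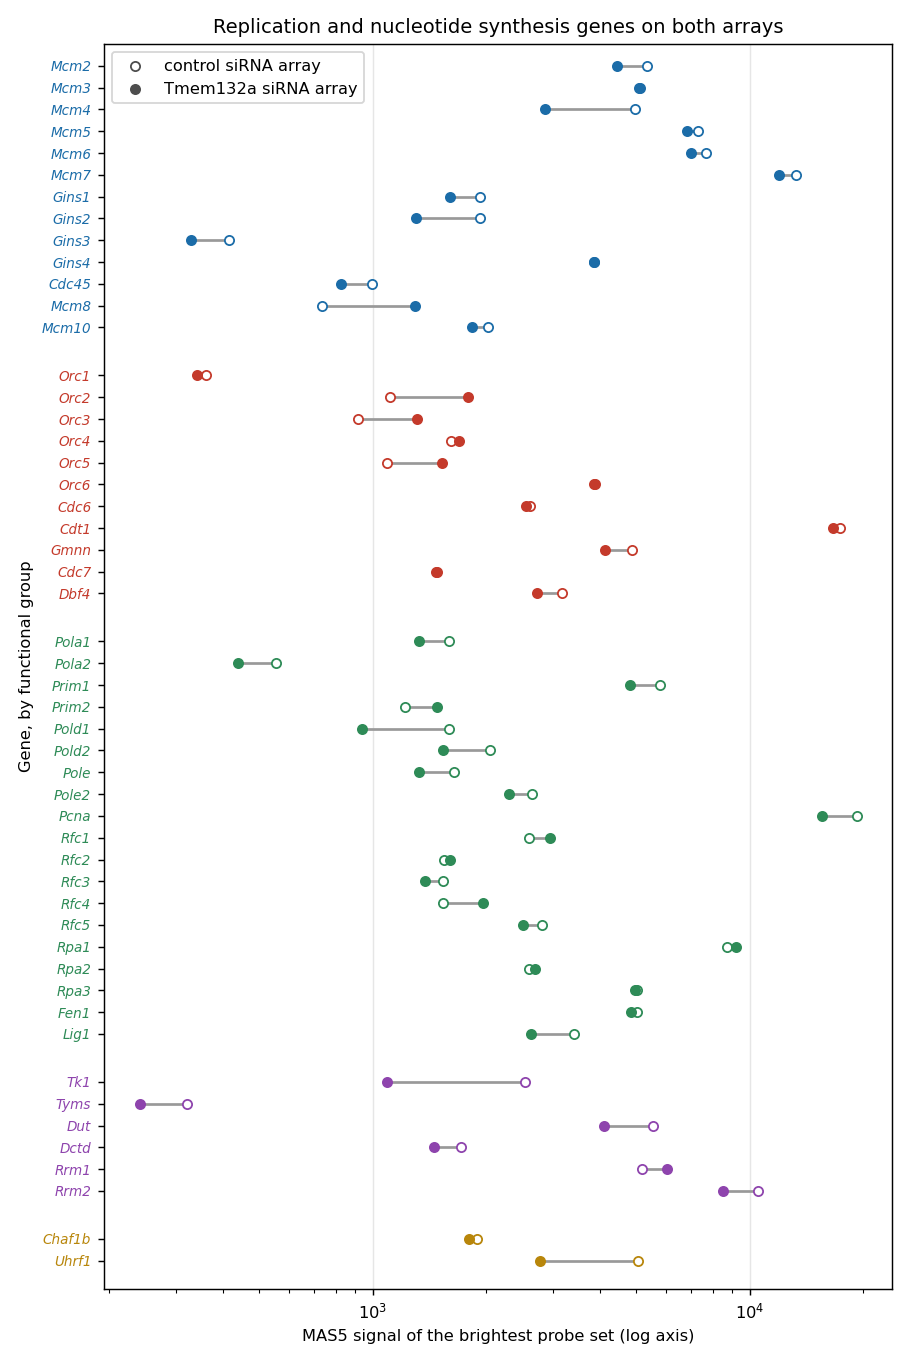
Signal of the brightest probe set of each of the 51 genes (horizontal log axis, MAS5 signal) on the control siRNA array (open circles) and on that of the Tmem132a siRNA (filled circles), with genes in rows coloured by functional group. Tk1 moves from 2531.6 to 1091.7 and Mcm4 from 4961 to 2873.2, while Mcm8 and Orc2 move the other way.

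The MCM ring, the motor of the replicative helicase, had all of its 6 subunits below 0, where 48.2% of all genes were. Of the 6, 5 lay close together. Mcm4 stood apart. Its brighter probe set went from 4961 on the control array to 2873.2 on the knockdown array, and its other probe set gave 3505.3 and 2232.4. The gene ratio was -0.72, which is 60.7% of the control, and both probe sets were low by a similar amount (-0.79 and -0.65). The remaining subunits ran from -0.27 for Mcm7 to -0.10 for Mcm6, with Mcm2 at -0.22, Mcm3 at -0.17 and Mcm5 at -0.12. The median of those 5 was -0.17 and their SD was 0.07. Mcm7 was measured by 4 probe sets that were all below 0, from -0.45 to -0.15, and the brightest went from 13275.4 to 11997.6. Mcm3 was measured by 5, from -0.41 to 0.00, the latter on its brightest (5088.2 and 5104.3). With no signal filter, where a probe set with 36.7 and 75.1 entered, Mcm5 was at 0.27.

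GINS, which joins the ring to make the active helicase, was split. Gins2 had signals of 1923.9 and 1302.5 on 1 probe set and of 1440.3 and 796.1 on the other, a gene ratio of -0.71 (61.2% of the control). Gins1 had a ratio of -0.42, with signals of 1920.4 and 1604.6 on its brighter probe set, and Gins3 one of -0.13. Gins4, with signals of 3855.2 and 3865.6, had a ratio of 0.00. Thus 1 of 4 subunits was past 1.5-fold and 1 was at the control level. Cdc45, the remaining partner of the active helicase, lay near the bulk of the MCM subunits at -0.22 (996.2 and 822.7 on its brighter probe set).

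Mcm8 and Mcm10 carry MCM names but are not part of the ring. Mcm8 works with Mcm9 in homologous recombination, and Mcm10 helps activate the helicase. Mcm8 had the highest ratio of all 51 genes, 0.81, with 735.2 on the control array and 1292.8 on the knockdown array (176% of the control), and it rests on 1 probe set. Mcm9, its partner, had a ratio of 0.16 (425.8 and 475.4). Mcm10 had a ratio of 0.11 over 3 probe sets, but its brightest, with 2017.3 and 1834.7, gave -0.14, and the 0.46 of its dimmest raised the mean.

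Origin genes were the group nearest to the control level, with a median of -0.04 over 11 genes. Past 1.5-fold there were 0 of 11 in either direction, beside 9.1% of all genes lower and 8.83% higher, a count too small to set the group apart. The origin recognition complex, however, held the 2 highest ratios after Mcm8. Orc2 had signals of 1111.2 and 1787 on its brightest probe set and a gene ratio of 0.57 over 3 probe sets (0.69, 0.15 and 0.87), just short of 1.5-fold. Orc5 had a ratio of 0.49 (1089.5 and 1527.7) and Orc3 one of 0.40 (913.9 and 1309 on its brighter probe set). All 6 probe sets of Orc2, Orc3 and Orc5 past the filter were above 0. Orc1, the subunit whose level is known to follow the cell cycle, lay at -0.05, with signals of 361.2 and 342.4 on its brighter probe set, and Orc6 at 0.01 (3866.9 and 3898.1). Orc4 had a mean of -0.05 over 4 probe sets that ran from -0.75 to 0.65, the widest disagreement after Tyms, and its brightest gave 0.07 (1612.2 and 1689.5). A further probe set that the annotation gives to both Orc4 and Acvr2a was left out by the rule. The complex thus had 3 subunits between 0.40 and 0.57 and 3 between -0.05 and 0.01.

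The factors that license and fire origins were all at or slightly below the control level. Cdc6, which helps load the MCM ring, had signals of 2611.2 and 2543.7 and a ratio of -0.04. Cdt1, its partner in loading, had 17371.2 and 16617.3 on its brighter probe set and a gene ratio of -0.14, and Gmnn, which encodes geminin, the inhibitor of Cdt1, had 4882.5 and 4138.1 and a ratio of -0.24. The kinase gene Cdc7 lay at -0.01 and that of its activator Dbf4 at -0.22 (3168.9 and 2719.8). None of these 5 genes differed by more than 1.2-fold.

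**Figure D3:**
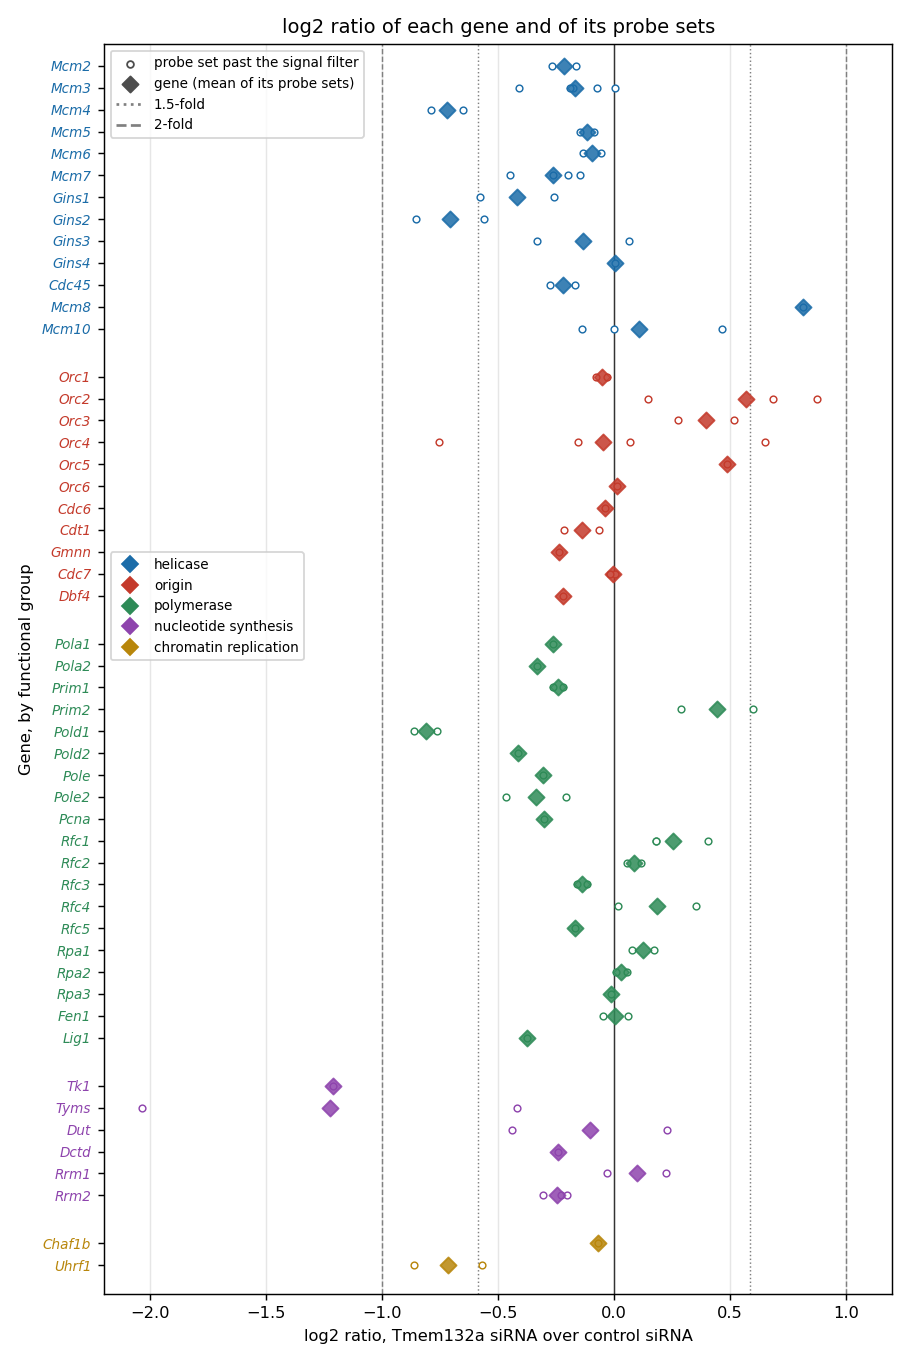
The log2 ratio, knockdown over control (horizontal axis), of each of the 51 genes (diamonds, mean of probe sets) and of each probe set past the signal filter (open circles), in rows coloured by functional group. Dotted and dashed lines mark 1.5-fold and 2-fold. Tk1, Tyms, Pold1, Mcm4, Uhrf1 and Gins2 lie left of the 1.5-fold line and Mcm8 lies right of its counterpart, while the probe sets of Tyms and Orc4 are spread most widely.

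The polymerase and primase genes of the set were mostly below the control level, and the clamp loader and the single-strand binding proteins were not. Further subunits of polymerases delta and epsilon, listed outside the set, were mixed. Pold4 lay at 0.44, Pold3 at -0.11 and Pole4 at -0.28, and Pole3 at 0.27 over probe sets that ran from -0.33 to 0.88. Of the 8 polymerase and primase genes, 7 had ratios below 0, with a median of -0.32, while the 8 genes of replication factor C and replication protein A had a median of 0.06 with 3 below 0. The latter all lay within 1.2-fold of the control, and 2 of the 8 polymerase and primase genes did. Pold1, the catalytic subunit of polymerase delta, was the lowest of the polymerase group. Its 2 probe sets went from 1591.9 to 939 and from 1621.2 to 891.5, a gene ratio of -0.81 (57% of the control), and differed from each other by only 0.10. Its partner subunit Pold2 had a ratio of -0.41 (2052.7 and 1539.7).

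Polymerase epsilon, which copies the leading strand, had ratios of -0.31 for Pole, the catalytic subunit (1642.5 and 1327), and -0.34 for Pole2 (2650 and 2295.5 on the brighter probe set). Polymerase alpha with primase lays down the primers. Its catalytic subunit Pola1 had a ratio of -0.26 (1592.6 and 1327.2), Pola2 one of -0.33 (554.7 and 440.6) and the small primase subunit Prim1 one of -0.24 (5786.2 and 4818.6 on the brighter probe set). Prim2, the large primase subunit, was the exception at 0.44, with signals of 1214.7 and 1484.2 on one probe set and of 745.3 and 1127.8 on the other. It was the highest of the polymerase group, and with no signal filter, where a probe set with 24.5 and 12.6 entered, its ratio was 0.04.

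Pcna, the sliding clamp that holds the polymerases on DNA, had 19215.6 on the control array and 15589.6 on the knockdown array, a ratio of -0.30. The clamp loader subunits Rfc1 (0.25), Rfc4 (0.19) and Rfc2 (0.09) were above 0, and Rfc3 (-0.14) and Rfc5 (-0.17) below. The single-strand binding subunits Rpa1, Rpa2 and Rpa3 had ratios of 0.12, 0.03 and -0.01. Of the enzymes that finish the lagging strand, the flap nuclease gene Fen1 lay at 0.01 and the ligase gene Lig1 at -0.37 (3412.3 and 2631.6). The clamp, the ligase and all polymerase and primase genes of the set but Prim2 thus lay between -0.81 and -0.24.

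Nucleotide synthesis had a median of -0.24 over 6 genes and held Tk1 and Tyms, the genes with the lowest means as reported. Tyms did not keep that place: its ratio was -0.64 with no filter, -0.68 with a pseudocount and -0.42 by its brightest probe set, where Pold1 and Mcm4 were lower. Tk1, thymidine kinase of the salvage route to dTMP, went from 2531.6 on the control array to 1091.7 on the knockdown array, 43.1% of the control and a ratio of -1.21, on its only probe set. Tyms, thymidylate synthase of the de novo route, had a mean ratio of -1.23, but its probe sets disagreed: 1 went from 321.8 to 241 (-0.42) and the other, dimmer one from 165 to 40.3 (-2.03), passing the filter only through its control signal. A brighter probe set went from 2098.9 to 1215.6, a ratio of -0.79. The annotation gives it to both Tyms and its pseudogene copy Tyms-ps, so it was left out of the value of Tyms. These 3 probe sets were all lower on the knockdown array, but 1 passed only through its control signal and 1 is shared with Tyms-ps. Their common direction is therefore no support for a difference. Further Tyms probe sets, under the filter, had 39.7 and 36.6, and 6.9 and 4.9. The size for Tyms is uncertain.

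The other enzymes of the group were closer to the control. Dut, the dUTPase that makes the dUMP used by thymidylate synthase, had a ratio of -0.11, with 5557.4 and 4097.8 on its bright probe set (-0.44) and 279.8 and 327.8 on its dim one (0.23). Dctd, which makes dUMP from dCMP, had a ratio of -0.24 (1717.9 and 1452.2). For ribonucleotide reductase, the large subunit Rrm1 had a ratio of 0.10 and the small, S-phase subunit Rrm2 one of -0.25 over 3 probe sets that ran from -0.31 to -0.20, with 10532.6 and 8512.3 on the brightest. Without Tk1 and Tyms the median of the group was -0.17, against -0.13 over the 45 genes of the other groups.

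Of the genes of chromatin replication, Uhrf1, which binds hemimethylated DNA and recruits the maintenance methyltransferase, went from 5065.2 to 2785.9 on its bright probe set and from 386.5 to 260.5 on its dim one. Its gene ratio was -0.72 (60.9% of the control). Chaf1b, a subunit of the histone chaperone CAF-1, had a ratio of -0.07 (1887.2 and 1797.7). A dim probe set of Chaf1b, under the filter, had 49.4 and 9.3.

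Set side by side, the medians were -0.17 for the helicase, -0.04 for the origin, -0.17 for the polymerase and -0.24 for the nucleotide synthesis group, and -0.39 for the 2 genes of chromatin replication. The spread within each of the first 4 was larger than the gaps between them, with SDs of 0.38, 0.28, 0.29 and 0.58 in the same order. The groups overlapped: the helicase ran from -0.72 to 0.81, the origin group from -0.24 to 0.57, the polymerase group from -0.81 to 0.44 and nucleotide synthesis from -1.23 to 0.10. No member of the origin group was past 1.5-fold, against 3 of 13 in the helicase and 1 of 19 in the polymerase group. The nucleotide group had 2 of 6, Tk1 and, with the limit given above, Tyms. Beside 9.1% of all genes lower and 8.83% higher, these counts are too small to read an order from, and the difference between groups was not tested.

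**Figure D4:**
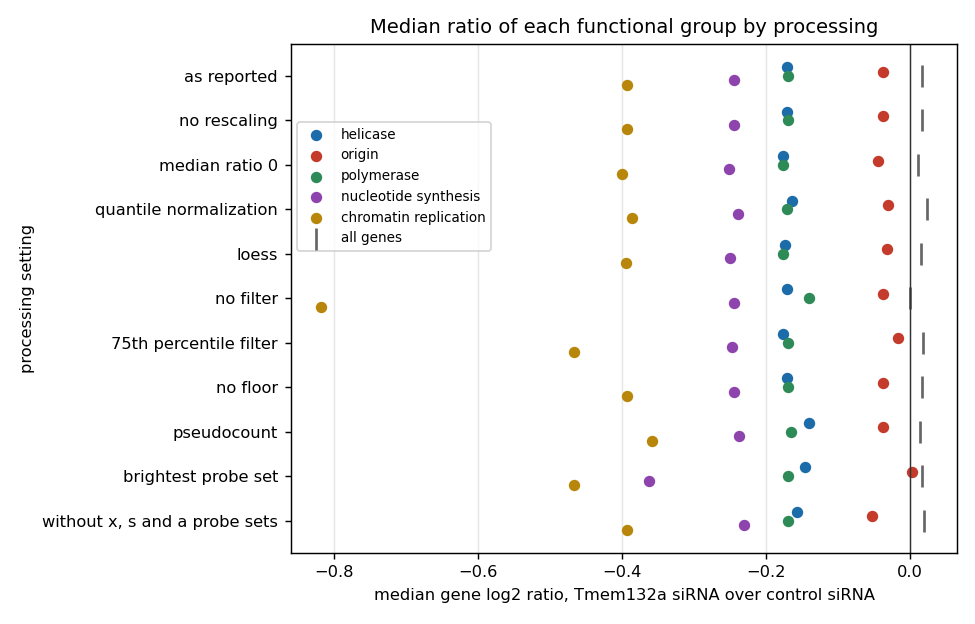
Median gene log2 ratio (horizontal axis, knockdown over control) of each functional group (coloured points) and of all genes (grey bars) as reported and under 10 other processing settings (rows). The origin group stays nearest to 0, between -0.05 and 0.00, and the chromatin group, with 2 genes, moves furthest, to -0.82 with no filter.

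Promoters were compared because many of these genes are E2F targets. RefSeq windows of 300 bases, from 250 before to 50 after an annotated start (build GRCm38.p6), were found for 44 of the 52 genes. Mcm4, Gins1, Gins2, Gins4, Gmnn, Prim2, Pole and Rfc2 had no entry. An E2F-type motif, any of TTTCCCGC, TTTCGCGC, TTTGCCGC and TTTGGCGC on either strand, was present in 16 of the 44 genes (36.4%), against 2.6% of 27025 genes with a window. By windows it was 28.6% of 56, against 2.26% of 32851. A match is a description of letters and not a bound site. The 22 matches include overlapping ones on opposite strands (in Mcm5 and Mcm6), and 14 lay within 100 bases of the start.

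The match nearest to the start is shown for the MCM genes that carry one and for the genes past 1.5-fold that have one. Each stretch holds up to 10 bases on both sides of the match, reads on the strand that begins the motif with TTT, and has the motif in capitals. The stretches of Mcm8 and Pold1 are shorter on the left, where the window ends.
Mcm3: cttcccaagtTTTCCCGCcacggaagtt
Mcm5: ggctggacgtTTTGGCGCgaaagttctt
Mcm6: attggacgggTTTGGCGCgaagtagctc
Mcm7: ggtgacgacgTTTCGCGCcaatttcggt
Mcm8: tttTTTGGCGCgtctatgacg
Pold1: gctTTTCCCGCcacaagatac
Uhrf1: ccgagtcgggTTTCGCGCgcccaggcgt

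These stretches lie at chr1:20820276-20820303 (Mcm3), chr8:75109350-75109377 (Mcm5), chr1:128359735-128359762 (Mcm6), chr5:138171850-138171877 (Mcm7), chr2:132816170-132816190 (Mcm8), chr7:44548766-44548786 (Pold1) and chr17:56304118-56304145 (Uhrf1). The genes Mcm3, Mcm6, Mcm7 and Pold1 are on the minus strand and the genes Mcm5, Mcm8 and Uhrf1 on the plus strand. The stretches of Mcm6, Mcm7 and Uhrf1 read on the strand of their gene. Those of Mcm3, Mcm5, Mcm8 and Pold1 read on the opposite strand. Counted from the annotated start, the centre of the match is at 43 in both Mcm8 and Pold1 and at -181 in Uhrf1. The ratios of the genes that carry these letters ran from -0.81 (Pold1), the lowest outside nucleotide synthesis, to 0.81 (Mcm8), the highest of the 51. The 16 genes with a match had a median ratio of -0.14 with 14 below 0, and the 27 measured genes with a window but no match a median of -0.07 with 17 below 0.

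Tk1 and Tyms had no E2F-type match in their windows. Their 250 bases before the annotated start are shown because they supply thymidylate by the salvage and the de novo route and had the lowest means as reported, that of Tyms with the limit given above, with the GC box GGGCGG, searched on both strands, in capitals. It occurs once in each stretch, at chr11:117826015-117826264 (Tk1, minus strand) and chr5:30073626-30073875 (Tyms, minus strand).
Tk1: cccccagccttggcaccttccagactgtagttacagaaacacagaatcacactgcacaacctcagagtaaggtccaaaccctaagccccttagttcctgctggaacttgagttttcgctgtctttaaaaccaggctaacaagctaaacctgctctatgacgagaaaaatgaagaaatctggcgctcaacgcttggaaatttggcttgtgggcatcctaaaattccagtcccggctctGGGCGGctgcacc
Tyms: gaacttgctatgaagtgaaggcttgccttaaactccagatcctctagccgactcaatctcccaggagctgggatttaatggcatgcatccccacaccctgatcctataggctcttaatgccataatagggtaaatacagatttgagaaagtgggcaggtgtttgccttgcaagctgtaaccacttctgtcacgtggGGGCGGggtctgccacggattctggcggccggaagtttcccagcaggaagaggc

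The GC box was present in 35 of the 44 genes (79.5%), against 38.2% of all genes with a window. The CCAAT box, CCAAT on either strand, was present in 27 (61.4%), against 41.1%, and the motif TTTGAA, known from late cell cycle promoters, in 7 (15.9%), against 20.2%. The 34 measured genes with a GC box had a median ratio of -0.16 and the 9 without one a median of -0.04. Among the genes with a CCAAT box and those without it, the medians were -0.13 and -0.14. Apart from the GC box, which all 4 genes past 1.5-fold lower with a window shared (Tk1, Tyms, Pold1 and Uhrf1), no motif searched was common to them. The place of Tyms among these genes has the limit given above.

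Other genes of the replisome and of initiation, listed beside the 52, had a lower median than these. Of 36 listed, 33 were measured, 25 of them below 0, with a median of -0.28. At least 1.5-fold lower were 3 (9.09%), beside 9.1% of all genes, and 0 were at least 1.5-fold higher. Chtf18, of an alternative clamp loader, had a ratio of -0.97 (311.3 and 159.3), Rnaseh2a, the catalytic subunit of ribonuclease H2, one of -0.72 (968.4 and 586.5), and Nasp, a histone chaperone, one of -0.71 over 4 probe sets that ran from -1.88 to -0.18. Dnmt1, the maintenance methyltransferase that UHRF1 recruits, had a ratio of -0.49 over 3 probe sets, all below 0. Ticrr, needed for origin firing, was the highest at 0.50.

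Other genes of pyrimidine and deoxynucleotide metabolism were centred near 0. Of 27 listed, 24 were measured, with a median of -0.05, 1 at least 1.5-fold lower and 1 at least 1.5-fold higher (each 4.17%), beside 9.1% and 8.83% of all genes. Nt5c, a deoxynucleotidase, had a ratio of -0.66 (1666.4 and 1056.1). Samhd1, which breaks down deoxynucleotides, had a mean of 1.27 over 5 probe sets that ran from -0.05 to 3.85, and its brightest went from 645.4 to 938.8. Dtymk, the kinase that follows both Tk1 and Tyms on the way to dTTP, lay at 0.14 (2219.2 and 2454.5).

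General markers of dividing cells showed no common size. Of 10 listed, 9 were measured, with a median of -0.16 and 7 below 0. Birc5 had a ratio of -0.64 (4803.9 and 3092.7), Top2a, also counted among the replisome genes, one of -0.52 and Ccna2 one of -0.49, while Mki67 lay at 0.08 (4752.3 and 5019.8) and Bub1 at 0.13. Their summed signal was 44758.8 on the control array and 38678.6 on the knockdown array. How far the share of dividing cells moves the ratios of the replication genes was not tested.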

How the data were processed

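The series held 2 samples, grouped by title. The deposited values are linear signal intensity per probe set, computed by the authors in MAS5 according to the submitters' processing notes. The MAS5 version and its target are not given in the sources used here, and each column had a 2% trimmed mean of 500.003. Detection calls were not used here.

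Computation used Python 3.11.15 with numpy 2.4.6, pandas 2.3.3, statsmodels 0.14.6 and matplotlib 3.10.9. The trimmed means were made equal, and 64 control probe sets were left out of 45101. Symbols came from the platform annotation (34945 probe sets with 1 symbol, 932 with several, 9160 not listed). Entrez identifiers of 34741 were found in the RefSeq gene table, and 0 symbols changed. The filter left 22519 probe sets and 10678 genes. Signals under 14.5, the 20th percentile, were raised to it. Of the 109 probe sets of these genes, 95 passed the filter, 0 of them at the floor. The other 14 were under the filter, with signals of 1.2 to 102.9. The number of arrays limits the precision. The procedure was tested on simulated data. The genes to name were those past 1.5-fold, the extremes of each group, those next to 1.5-fold and those with probe sets that disagreed by 2-fold. Of each other list, the rule named the genes past 2-fold or the highest and lowest, and further genes of those lists were chosen after their values were seen, as were the sequences shown. The members, their groups and the lists were chosen with earlier results of these data known. The alternatives tried were the 75th percentile of signal as the filter (462.8), no filter, no floor, a pseudocount of 79.2, no rescaling, centring of the ratios on 0, quantile and loess normalization (span 0.3), only the brightest probe set of a gene, and leaving out x, s and a probe sets. Medians were taken as unmoved within the probe-set SD divided by the square root of the number of genes, and counts within 1.5 times.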

Additional observations from a re-analysis of the deposited data

How the results depend on the processing

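Of 100 summary values under the 10 alternatives (medians of the set and its groups, and counts past 1.5-fold and 2-fold), 94 were unmoved, and 59 of 60 medians were below 0. These totals include 2 alternatives, no rescaling and no floor, that could not move the values. The trimmed means were already equal, and 0 probe sets of these genes past the filter were at the floor. The count at least 2-fold lower was 2 as reported and 1 with no filter, with the 75th percentile filter, with the pseudocount and by the brightest probe set, where only Tk1 remained. Tyms was then at -0.64, not measured, -0.68 and -0.42. The count at least 1.5-fold higher was 2 by the brightest probe set, where Orc2 reached 0.69. The median of the chromatin group was -0.82 with no filter, which lets in the dim probe set of Chaf1b. The origin median was 0.00 by the brightest probe set. Tk1, Pold1, Mcm4, Uhrf1 and Mcm8 kept their 1.5-fold size in all 10 alternatives, and Gins2 did in 9, with -0.56 by the brightest probe set. Again, 2 of these alternatives could not have changed it. Of the 51 genes, 42 kept their sign in every alternative that measured them. Leaving out x, s and a probe sets left 46 genes. The median of all genes stayed between 0.00 and 0.02. No paired analysis was possible because there was 1 array per group, which for the same reason leaves no replicate to leave out.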

Other observations

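Purine synthesis genes, which supply the other deoxynucleotide precursors, were centred on the control level. Of 19 listed, 17 were measured, with a median of -0.02 and 0 past 1.5-fold in either direction, beside 9.1% of all genes lower and 8.83% higher. The pathway to IMP and its folate supply were mixed, with Adsl at 0.56 (1884.1 and 2776.8), Mthfd1 at 0.46 (3459.7 and 4767.4) and Atic at 0.42 (3548 and 4977.4), Ppat at 0.25, and Pfas at -0.02, Gart at -0.10 and Paics at -0.14. The 4 probe sets of Gart ran from -1.08 to 0.46, and its brightest went from 1885.4 to 2600.5. The phosphoribosyl pyrophosphate synthetases Prps1 and Prps2 were the lowest, at -0.42 and -0.47, the latter over probe sets that ran from -1.29 to 0.11.

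Start sites of 14 of these genes lay head to head with that of another gene on the opposite strand, no more than 1000 bases apart or 500 overlapping, in the RefSeq promoter table. Both genes were measured in 9 pairs. The partner had the higher ratio in all 9, and both ratios lay on the same side of 0 in 4. The replication genes as a set had a lower median than all genes (-0.14 and 0.02). How often other genes lie above these members was not computed, so the 9 of 9 is not read as a result about the pairs. Orc3 (0.40) and Rars2 (0.61), an arginyl-tRNA synthetase of mitochondria, start 15 bases apart. Rpa3 (-0.01) and Umad1 (1.10), 147 bases apart, and Lig1 (-0.37) and Zswim9 (0.93), 105 bases apart, differed most. Zswim9, however, rests on 1 dim probe set with a mean signal of 82.5. With that mean and ratio its control signal was under the filter value of 77.25, so it passed only through its knockdown signal. The place of this pair in the counts is therefore no support for a difference. The partners Tmem258 and Ap4m1 also rest on 1 dim probe set each, with mean signals of 149.05 and 163.4. The pairs were looked at after the ratios were known, and no test was made.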
